A study of Homo sapiens with 16 samples.

Results

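The 39 genes described here encode the HLA molecules that carry peptides to the cell surface and the proteins that make, transport, trim and load those peptides, together with the transcription factors of the HLA genes. They were taken by symbol from the deposited table, and all 39 of them were among its 39007 genes. The study made a gemcitabine-resistant line, GRC1, from T24, an established human bladder cancer cell line, by stepwise passage in gemcitabine, a nucleoside analog used in chemotherapy. RNA was sequenced from the parental phase P0, early phase P3, phase P7 and late phase P15, with 4 libraries each. P0 is T24 itself, and P3, P7 and P15 are gemcitabine-resistant T24 cells at successive phases of the same selection. All 16 libraries therefore derive from 1 cell line and 1 selection, and the labels do not say whether the 4 libraries of a phase were separate cultures, so the p-values measure the spread between these libraries, which may be technical.

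MHC class I molecules, a polymorphic HLA heavy chain paired with B2M (beta-2 microglobulin), show peptides from the cell's own proteins to cytotoxic T cells. The peptides are cut by the proteasome, of which an interferon-inducible form carries the catalytic subunits PSMB8, PSMB9 and PSMB10, are pumped into the endoplasmic reticulum by TAP1 and TAP2, trimmed by ERAP1 and ERAP2, and loaded with the help of tapasin (TAPBP), calreticulin and PDIA3. MHC class II molecules present endosomal peptides to helper T cells. Their chains assemble on the invariant chain CD74, which cathepsins such as CTSS degrade, and HLA-DM then exchanges the remaining fragment for antigenic peptide. Class II is typical of professional antigen-presenting cells, but many epithelial and cancer cells can also express it, above all under interferon gamma.

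Values are log2(CPM + 1), where CPM is a gene's count scaled to a common library total. The spacing of the low values gave total counts of 33.84 M to 50.0 M per library, so that 1 count was worth 0.02 to 0.0296 CPM. Epithelial markers were expressed (summed over 6 genes, 2070 to 2150 CPM in the P0 libraries) but fell to between 673 and 751 CPM at P15, with KRT7 at 957 CPM on average at P0 and 11.5 at P15. KRT18 went the other way, from 471 CPM at P0 and 453 at P7 to 633 at P15, where it made up most of the sum, and CDH1, UPK1B and UPK3A were at or near 0 throughout. The summed level of 5 fibroblast markers rose from 5.42 to 6.3 CPM at P7 to 25.6 to 28.8 at P15, mostly COL1A1 (24 CPM), and their part in the results was not tested. PTPRC, the common marker of leukocytes, was listed at 0 in every library of P0, P3 and P7 and reached at most 0.057 CPM at P15, and FLT3, a marker of dendritic cells, was listed at 0 in all 16 libraries. Whether the P15 libraries share the genotype of T24 was not tested.

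Of the 39 genes, 28 averaged more than 1 CPM and entered a limma fit over 13249 genes, and 11 did not reach that level. The 11 were HLA-G, CIITA, HLA-DRA, HLA-DRB1, HLA-DRB5, HLA-DQA1, HLA-DQB1, HLA-DMA, HLA-DMB, HLA-DOA and IFI30. A gene was called where its Benjamini-Hochberg adjusted p over all tested genes was below 0.05 and its change was at least 2-fold. Between P0 and P3, 2 of the 28 tested genes were called, CD74 and RFX5, both lower, against 4.47% of all tested genes called in either direction (1.95% higher and 2.51% lower). On the adjusted p alone 10 rose and 11 fell, beside 31.4% and 37.3% of all tested genes. From P3 to P7 none was called (1.84% of all tested genes, 0.996% higher and 0.845% lower), but without the demand on size 18 of the 28 rose and 2 fell, against 30.3% and 28% of all tested genes. From P7 to P15 the genes moved most: 12 fell and 1 rose by at least 2-fold, where 12.1% of all tested genes fell and 13.4% rose (25.5% in all). On the adjusted p alone 23 fell and 4 rose, beside 40.1% and 46.3%. Over the whole course, P15 against P0, 13 fell and none rose (23.6% of all tested genes were called, 11.5% lower and 12.2% higher), and on the adjusted p alone 21 fell and 6 rose, beside 40.9% and 45.3%. The median log2 fold change of the 28 was -0.89 at P15 against P7, beside 0.05 over all tested genes, and 0.22 at P7 against P3, beside 0.01. By their means, 22 of the 28 were lowest at P15 and 14 were highest at P7, whereas P15 was the lowest phase for 38.5% of all tested genes and P7 the highest for 16.2%. Of the 11 genes not tested, 10 were highest at P15 and 1 was lowest there, so the counts of falls hold for the tested genes only. The filter on the mean of all libraries kept CTSS, CD74 and HLA-DPB1, at 0.309, 0.499 and 0.122 CPM at P15. It left out HLA-DMA and CIITA, at 1.76 and 1.33 CPM there. The comparisons P15 against P7 and P15 against P0 share the P15 libraries, and P3 against P0 and P15 against P0 share the P0 libraries.

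**Figure D1:**
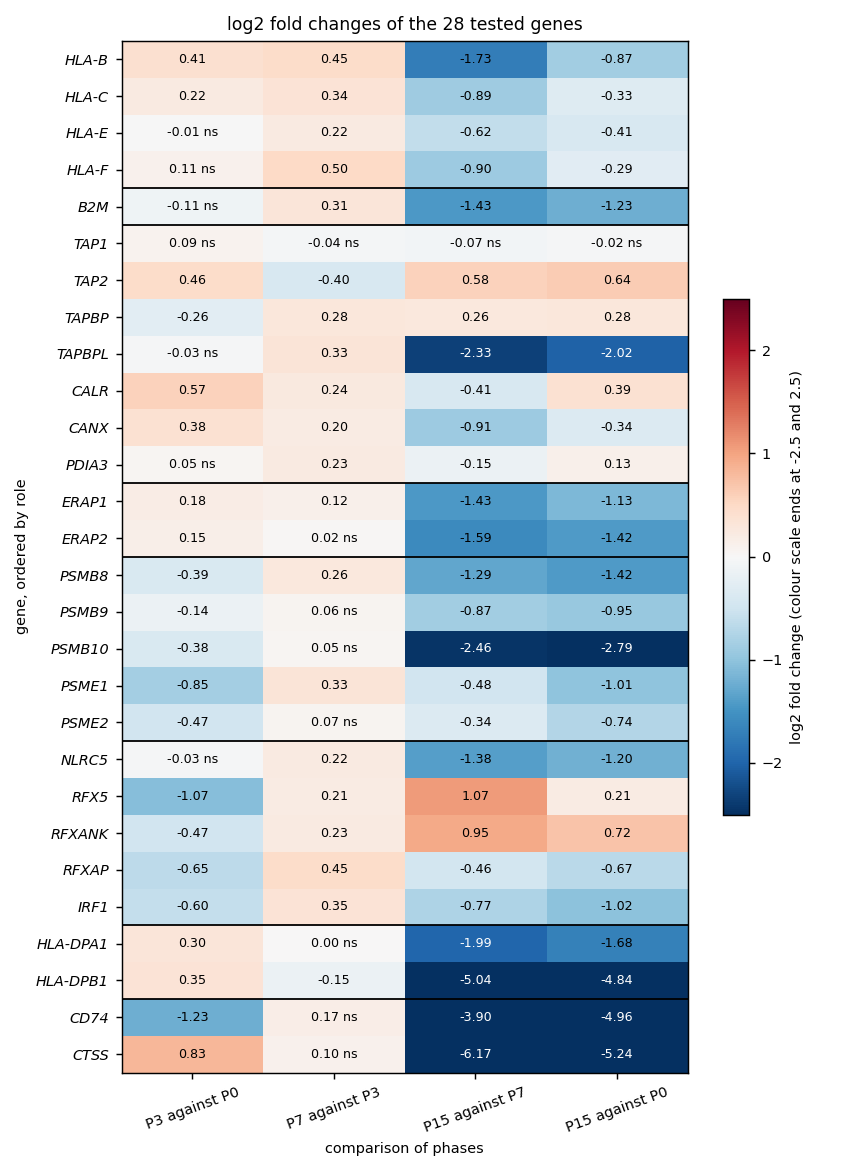
Each row is 1 of the 28 tested genes, ordered by role, and each column a comparison of phases; colour and number give the log2 fold change, and ns marks an adjusted p of 0.05 or above (limma). The third column, P15 against P7, holds most of the falls, from -6.17 for CTSS, while TAP2, TAPBP, RFX5 and RFXANK rose.

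By their means, the tested heavy chains of class I were highest at P7 and lowest at P15. HLA-B, a classical heavy chain, was at 7.58, 7.83, 7.58 and 7.59 at P0, 8.09, 8.04, 8.06 and 8.05 at P3, 8.51, 8.47, 8.56 and 8.48 at P7 and 6.86, 6.85, 6.59 and 6.80 at P15. Its 4 groups did not overlap, with P7 highest and P15 lowest. It rose by 0.41 (SE 0.05, adjusted p = 2.1e-07) from P0 to P3 and by 0.45 (SE 0.05, adjusted p = 1.3e-07) from P3 to P7, and from P7 to P15 it fell by 1.73 (SE 0.05, adjusted p = 7.5e-20), a 3.32-fold change. Against P0 the level at P15 was 1.83-fold lower, short of the 2-fold limit. HLA-C, the other classical heavy chain among the genes, rose by 0.22 and then 0.34 and fell by 0.89 (SE 0.04) from P7 to P15. HLA-E, which presents leader peptides to the NKG2A receptor of natural killer cells, fell by 0.62 (SE 0.04) and the nonclassical HLA-F by 0.90 (SE 0.08) in the same step. From P0 to P3 HLA-E (-0.01, adjusted p = 0.77) and HLA-F (0.11, adjusted p = 0.27) did not pass the test. HLA-F passed it without P0 replicate 2 (0.20, adjusted p = 0.019). All 4 tested heavy chains thus rose from P3 to P7 and fell from P7 to P15 (adjusted p below 0.05), but only HLA-B passed 2-fold. On the adjusted p alone, 30.3% of all tested genes rose from P3 to P7 and 40.1% fell from P7 to P15. The difference between HLA-B and HLA-C within a library went from 0.03 ± 0.05 (SD, n = 4) at P7 to -0.82 ± 0.09 at P15, a change of -0.85. A two-sided exact permutation test gave p = 0.029, the smallest that 4 against 4 libraries allow (adjusted p = 0.029 over 3 gene pairs). The pairs were chosen after the values were seen, so this p-value adds no support of its own. Per kilobase of exon, HLA-B, HLA-C and HLA-E stood at 236, 231 and 162 CPM at P7, and at 70.8, 125 and 105 CPM at P15, so that HLA-B was level with HLA-C at P7 and the lowest of the 3 at P15. HLA-F was at 17.3 and 9.04 CPM per kilobase. HLA-G, the heavy chain typical of the placenta, was near the detection limit, with 87, 111, 194 and 98 estimated counts summed over the 4 libraries of P0, P3, P7 and P15. The HLA genes are polymorphic paralogs whose reads can map to each other, and how reads with several hits were counted is not given in the sources used here, so the split between them is uncertain.

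B2M, the light chain that every class I heavy chain needs to reach the surface, likewise rose at P7 and fell at P15. It was at 10.30, 10.58, 10.34 and 10.28 at P0, 10.29, 10.20, 10.33 and 10.23 at P3, 10.55, 10.62, 10.58 and 10.53 at P7 and 9.25, 9.14, 9.04 and 9.14 at P15. The P15 libraries were the lowest and did not overlap with any others. The change from P0 to P3 was -0.11 (adjusted p = 0.056), and passed the test without P0 replicate 1 (-0.14, adjusted p = 0.031), P0 replicate 4 (-0.14, adjusted p = 0.024) or P3 replicate 3 (-0.14, adjusted p = 0.038). B2M rose by 0.31 (SE 0.05, adjusted p = 1.9e-05) from P3 to P7 and fell by 1.43 (SE 0.05, adjusted p = 2.5e-18) from P7 to P15, from a mean of 1520 to 565 CPM.

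NLRC5, the transactivator of the class I genes and of B2M, fell with them. Its values were 4.52, 4.57, 4.44 and 4.43 at P0, 4.35, 4.50, 4.45 and 4.53 at P3, 4.68, 4.64, 4.68 and 4.71 at P7 and 3.37, 3.16, 3.25 and 3.40 at P15. All 4 libraries of P15 lay below the other 12. The fall from P7 to P15 was 1.38 (SE 0.06, adjusted p = 9.7e-17), or 2.61-fold, after a rise of 0.22 (adjusted p = 0.0029) from P3 to P7. IRF1, an interferon-induced factor that acts on many class I pathway genes, was at 5.82, 5.69, 5.80 and 5.82 at P0, 5.17, 5.25, 5.18 and 5.15 at P3, 5.52, 5.57, 5.51 and 5.53 at P7 and 4.66, 4.78, 4.90 and 4.72 at P15. It was highest at P0, fell by 0.60 (SE 0.05) at P3, rose by 0.35 at P7 and fell again by 0.77 at P15, so that P15 was 2.02-fold below P0 (log2 fold change -1.02, adjusted p = 5.8e-16). It fell short of 2-fold with a pseudocount of 5 CPM (-0.92) and without P15 replicate 1 (-0.98).

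**Figure D2:**
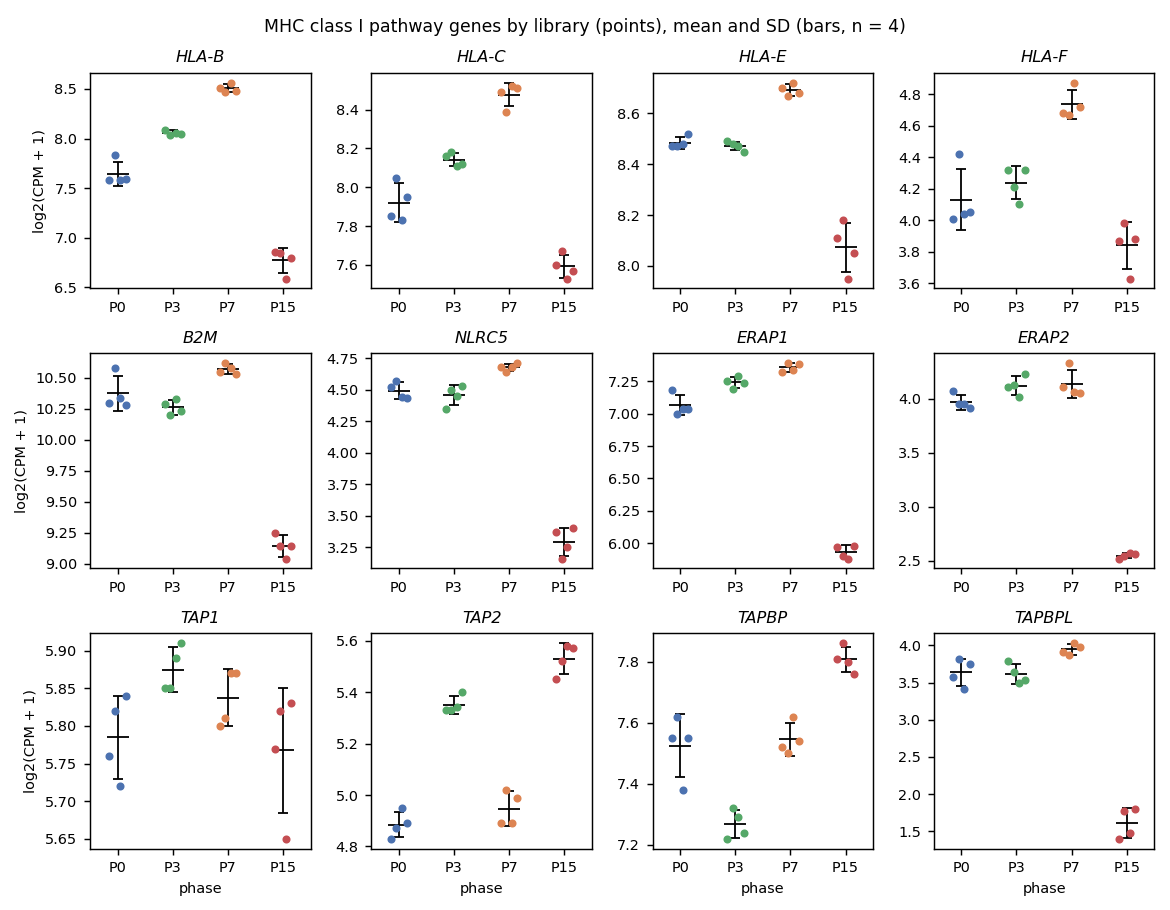
Values of 12 class I pathway genes in log2(CPM + 1) (vertical axes, which differ between panels and do not start at 0) by phase (horizontal axis); points are libraries and bars the mean and SD of 4. HLA-B, B2M, NLRC5, ERAP1, ERAP2 and TAPBPL are lowest at P15 with no overlap, TAP1 overlaps between P7 and P15, and TAP2 and TAPBP are highest at P15.

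Neither gene of the peptide transporter was called lower at P15. TAP1 was at 5.76, 5.82, 5.72 and 5.84 at P0, 5.85, 5.85, 5.89 and 5.91 at P3, 5.80, 5.81, 5.87 and 5.87 at P7 and 5.77, 5.82, 5.65 and 5.83 at P15, and the P7 and P15 libraries overlapped. Its change from P7 to P15 was -0.07 (SE 0.04, adjusted p = 0.12), and -0.11 (adjusted p = 0.025) after library medians were shifted to the same value. Its exons share bases with PSMB8-AS1 on the opposite strand. TAP2, its partner, rose by 0.58 (SE 0.04, adjusted p = 1e-11) in that step, from 4.89 to 5.02 at P7 to 5.45 to 5.58 at P15, and had also risen by 0.46 at P3 and fallen by 0.40 at P7. TAPBP, which bridges the transporter and the empty class I molecule, rose by 0.26 (SE 0.04, adjusted p = 2.5e-06). TAPBPL, the tapasin-related editor of class I peptides that works outside the loading complex, went the other way, with values of 3.57, 3.82, 3.42 and 3.75 at P0, 3.79, 3.65, 3.49 and 3.53 at P3, 3.91, 3.87, 4.03 and 3.98 at P7 and 1.40, 1.78, 1.48 and 1.80 at P15. It fell by 2.33 (SE 0.10, adjusted p = 5.4e-17), or 5.04-fold, from P7 to P15 with no overlap. Exons of TAPBPL share bases with CD27 on the same strand and VAMP1 on the opposite strand, and the strand setting of the counting is not given in the sources used here. The general chaperones of the endoplasmic reticulum moved less than TAPBPL: from P7 to P15 CANX (calnexin) fell by 0.91, CALR (calreticulin) by 0.41 and PDIA3, the disulfide isomerase of the loading complex, by 0.15. CALR and CANX had risen from P0 to P3, by 0.57 and 0.38, and from P3 to P7, by 0.24 and 0.20.

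The trimming peptidases of the endoplasmic reticulum both fell at P15. ERAP1 was at 7.18, 7.00, 7.04 and 7.04 at P0, 7.25, 7.19, 7.29 and 7.24 at P3, 7.32, 7.39, 7.34 and 7.38 at P7 and 5.97, 5.90, 5.88 and 5.98 at P15. ERAP2 was at 4.07, 3.95, 3.95 and 3.91 at P0, 4.11, 4.13, 4.02 and 4.23 at P3, 4.11, 4.33, 4.06 and 4.05 at P7 and 2.52, 2.54, 2.57 and 2.56 at P15. In neither gene did P15 overlap with another phase. From P7 to P15 ERAP1 fell by 1.43 (SE 0.04, adjusted p = 4.9e-21) and ERAP2 by 1.59 (SE 0.07, adjusted p = 6.6e-17). The earlier rises were small, at 0.18 (adjusted p = 0.00021) and 0.15 (adjusted p = 0.048) from P0 to P3, and the P0 and P3 libraries of ERAP2 overlapped. The rise of ERAP2 missed the threshold in 4 of the alternatives and without P0 replicate 2, 3 or 4, P3 replicate 1, 2 or 4, P7 replicate 1 or P15 replicate 1, 2 or 4 (adjusted p up to 0.16). ERAP1 shares exon bases with CAST on the opposite strand.

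The inducible catalytic subunits of the proteasome fell at P15, each by a different amount. PSMB10 was at 4.20, 4.43, 4.10 and 4.25 at P0, 3.84, 4.07, 3.68 and 3.87 at P3, 4.04, 3.81, 3.99 and 3.83 at P7 and 1.37, 1.71, 1.37 and 1.38 at P15. It fell by 2.46 (SE 0.09, adjusted p = 6.2e-18) from P7 to P15, from 14.5 to 1.80 CPM per kilobase, with no overlap. PSMB8 was at 6.04, 6.21, 6.08 and 6.07 at P0, 5.78, 5.61, 5.74 and 5.71 at P3, 5.98, 5.93, 5.98 and 5.98 at P7 and 4.74, 4.63, 4.67 and 4.67 at P15, and fell by 1.29 (SE 0.04, adjusted p = 7.1e-19). PSMB9 fell by 0.87 (SE 0.06, adjusted p = 1.3e-12), from 4.80 to 4.92 at P7 to 3.90 to 4.07 at P15. All 3 had also fallen from P0 to P3, by 0.39 for PSMB8, 0.38 for PSMB10 and 0.14 for PSMB9 (adjusted p = 0.036), where the PSMB9 groups overlapped. The fall of PSMB9 missed the threshold without P0 replicate 1 or 2 or P3 replicate 3 or 4 (adjusted p up to 0.16). It also missed with quantile normalization (adjusted p = 0.074), no filter on low values (0.082), shifted library medians (0.061) and a fit of only the 2 phases (0.054). Exons of PSMB8 and PSMB9 share bases on opposite strands. The activator subunits PSME1 and PSME2, which open the proteasome's gate, were lower from P3 on. PSME1 was at 8.01, 8.15, 8.06 and 7.99 at P0, 7.22, 7.18, 7.20 and 7.20 at P3, 7.48, 7.54, 7.57 and 7.51 at P7 and 7.06, 7.09, 6.96 and 7.06 at P15. Its largest step was the first, a fall of 0.85 (SE 0.04, adjusted p = 4e-16), and P15 was 2.01-fold below P0 (log2 fold change -1.01, SE 0.04, adjusted p = 1.7e-18). It fell short of 2-fold with quantile normalization (-0.93), with a pseudocount of 5 CPM (-0.99) and without P0 replicate 2 or P15 replicate 3 (-0.98 each). PSME2 fell by 0.47 at P3 and by 0.34 from P7 to P15. The 5 genes of this group all fell both from P0 to P3 and from P7 to P15 (adjusted p below 0.05), PSMB9 with the limit given for its first fall. Of all tested genes, 37.3% fell in the first of these steps and 40.1% in the second on the adjusted p alone.

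Each inducible subunit replaces a constitutive one, PSMB8 for PSMB5, PSMB9 for PSMB6 and PSMB10 for PSMB7, so the difference of the 2 log2 values within a library follows their balance. PSMB8 minus PSMB5 was -1.03 ± 0.05 at P0, -1.32 ± 0.07 at P3, -1.05 ± 0.06 at P7 and -2.61 ± 0.06 at P15 (SD, n = 4). PSMB9 minus PSMB6 was -1.90 ± 0.07, -2.17 ± 0.09, -2.05 ± 0.05 and -3.56 ± 0.04 in the same order. PSMB10 minus PSMB7 was -3.17 ± 0.15, -3.83 ± 0.17, -3.77 ± 0.13 and -6.34 ± 0.16. From P7 to P15 the balance moved by -1.56, -1.51 and -2.57 on the log2 scale (two-sided exact permutation tests, each p = 0.029, the smallest possible, adjusted p = 0.034 over 12 tests). The constitutive partners themselves rose in that step, PSMB6 by 0.64, PSMB5 by 0.27 and PSMB7 by 0.11. From P0 to P3 the balance moved by -0.29, -0.27 and -0.66 (exact p = 0.029 each, adjusted p = 0.034), though for PSMB9 the adjusted p was 0.069 without P0 replicate 1 or without P0 replicate 2. From P3 to P7, only PSMB8 minus PSMB5 moved, by 0.27 (exact p = 0.029, adjusted p = 0.034). The other two gave 0.12 (exact p = 0.086) and 0.06 (exact p = 0.6), and the former reached an adjusted p of 0.031 without P3 replicate 1.

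**Figure D3:**
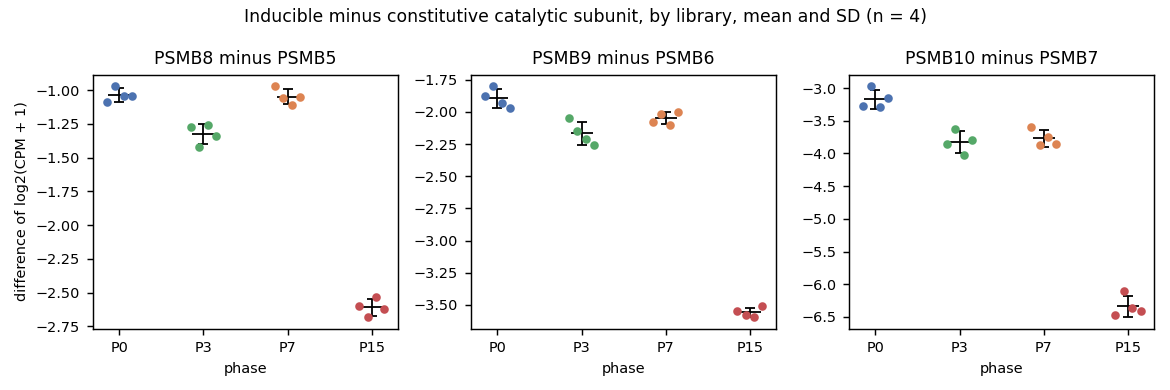
Difference of log2(CPM + 1) between each inducible subunit and its constitutive counterpart (vertical axes, which differ between panels) by phase (horizontal axis); points are libraries and bars the mean and SD of 4. In each panel the 4 libraries of P15 lie far below the other 12, at means of -2.61, -3.56 and -6.34.

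The class II genes expressed in T24 fell steeply at P15. HLA-DPB1, the beta chain of HLA-DP, was at 5.02, 4.97, 5.00 and 5.03 at P0, 5.27, 5.38, 5.35 and 5.42 at P3, 5.22, 5.21, 5.21 and 5.17 at P7 and 0.17, 0.19, 0.00 and 0.29 at P15. Its mean fell from 35.8 CPM at P7 to 0.122 CPM at P15, where 1 library was listed at 0. The change from P7 was -5.04 (SE 0.06, adjusted p = 6.1e-28) on the log2(CPM + 1) scale, which understates the change of a gene this low. HLA-DPA1, the alpha chain, was at 3.68, 3.52, 3.63 and 3.51 at P0, 3.84, 3.76, 4.01 and 3.95 at P3, 3.94, 3.84, 3.93 and 3.86 at P7 and 1.85, 1.91, 1.88 and 1.99 at P15, and fell by 1.99 (SE 0.07, adjusted p = 1e-18) from P7 to P15. The 2 genes overlap head to head, with exon bases shared on opposite strands, so that without strand their reads cannot be told apart there. From P0 to P3 both rose, by 0.35 (SE 0.06, adjusted p = 1.7e-05) and 0.30 (SE 0.07, adjusted p = 0.00039), although the rise of HLA-DPB1 was 0.36 (adjusted p = 0.11) with a pseudocount of 0.1 CPM.

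Of the accessory genes of class II, CTSS and CD74 fell with the HLA-DP chains, while HLA-DMA and HLA-DMB, described below, rose. CTSS, the endosomal protease that removes the invariant chain, was at 5.52, 5.86, 5.58 and 5.53 at P0, 6.47, 6.42, 6.49 and 6.45 at P3, 6.45, 6.61, 6.58 and 6.57 at P7 and 0.38, 0.41, 0.47 and 0.29 at P15. It rose by 0.83 (SE 0.06, adjusted p = 3e-11) at P3 and then fell by 6.17 (SE 0.06, adjusted p = 2.3e-29) at P15, from 92.9 to 0.309 CPM. CD74, the invariant chain, was at 5.47, 5.70, 5.51 and 5.46 at P0, 4.35, 4.34, 4.38 and 4.17 at P3, 4.52, 4.37, 4.44 and 4.58 at P7 and 0.77, 0.64, 0.42 and 0.48 at P15. It fell in separate steps, by 1.23 (SE 0.08, adjusted p = 1.5e-12) from P0 to P3 and by 3.90 (SE 0.08, adjusted p = 2e-23) from P7 to P15, with 0.17 (adjusted p = 0.07, and 0.031 with a pseudocount of 5 CPM) in between. In all 4 of these class II genes, each P15 library was below each library of the other phases. P15 was the lowest phase by the means for 38.5% of all tested genes, and the share of them without overlap was not counted. The summed level of 6 macrophage and dendritic cell markers was also lowest at P15, at 6.59 to 9.07 CPM at P0, 3.47 to 3.84 at P3, 6.58 to 7.19 at P7 and 0.195 to 0.37 at P15. From P0 to P3 the sum fell, as did CD74, while CTSS, HLA-DPA1 and HLA-DPB1 rose. From P3 to P7 the sum rose, while CD74 (0.17, adjusted p = 0.07), CTSS and HLA-DPA1 did not pass the test. CD14 gave means of 6.81, 1.95, 5.83 and 0.0577 CPM at P0, P3, P7 and P15, and ITGAX 0.23, 1.42, 0.812 and 0.0987, while CD163, CD68 and FLT3 were at or near 0 and PTPRC was listed at 0 through P7. The part of such cells in the result was not tested, and fewer cells of a type and less RNA per cell cannot be told apart in bulk RNA.

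The other class II genes were at the detection limit in P0, P3 and P7 and appeared at a low level at P15. HLA-DQB1, the beta chain of HLA-DQ, was at 0.99, 0.79, 0.90 and 0.64 in the P15 libraries and at 0 in 11 of the 12 others. HLA-DMB, 1 chain of the peptide exchanger HLA-DM, was at 1.00, 0.60, 1.06 and 0.92 at P15 and at 0 in 11 of the 12 others. HLA-DMA, its partner, was at 0.14, 0.24, 0.19 and 0.33 at P7 and 1.70, 1.19, 1.31 and 1.59 at P15. In estimated counts summed over 4 libraries, P7 and P15 held 0 and 126 for HLA-DQB1, 0 and 141 for HLA-DMB, 28 and 288 for HLA-DMA, 4 and 72 for HLA-DRB1 and 4 and 36 for HLA-DRA. CIITA, the master regulator of class II transcription, rose with them from 38 to 214, at 0.21, 0.36, 0.16 and 0.44 at P7 and 1.36, 1.05, 1.39 and 1.05 at P15. Low counts were even in 70.9% to 73.0% of the estimated counts from 1 to 10 in each library, so they are not independent molecules. In the fit without a filter on low values, planned as an alternative, the change from P7 to P15 was 1.22 (SE 0.11, adjusted p = 2.6e-08) for HLA-DMA, 0.92 (SE 0.10, adjusted p = 3.1e-07) for CIITA, 0.90 (SE 0.07, adjusted p = 3.5e-09) for HLA-DMB, 0.83 (SE 0.05, adjusted p = 2.8e-10) for HLA-DQB1 and 0.49 (SE 0.05, adjusted p = 1.5e-07) for HLA-DRB1. HLA-DRA gave 0.25 (adjusted p = 6.7e-05) and HLA-DQA1, with 9 counts at P15, 0.07 (adjusted p = 0.0097), while HLA-G fell by 0.46 (adjusted p = 0.00011). HLA-DRB5, HLA-DOA and IFI30 gave 3, 2 and 26 counts at P15 and did not pass that test. Per kilobase, HLA-DMA stood at 1.61, HLA-DMB at 0.648 and HLA-DQB1 at 0.489 CPM at P15, against 8.98 for HLA-DPB1 at P7. HLA-DQB1 and HLA-DMA share exon bases with HLA-DQB1-AS1 and BRD2 on the opposite strand.

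**Figure D4:**
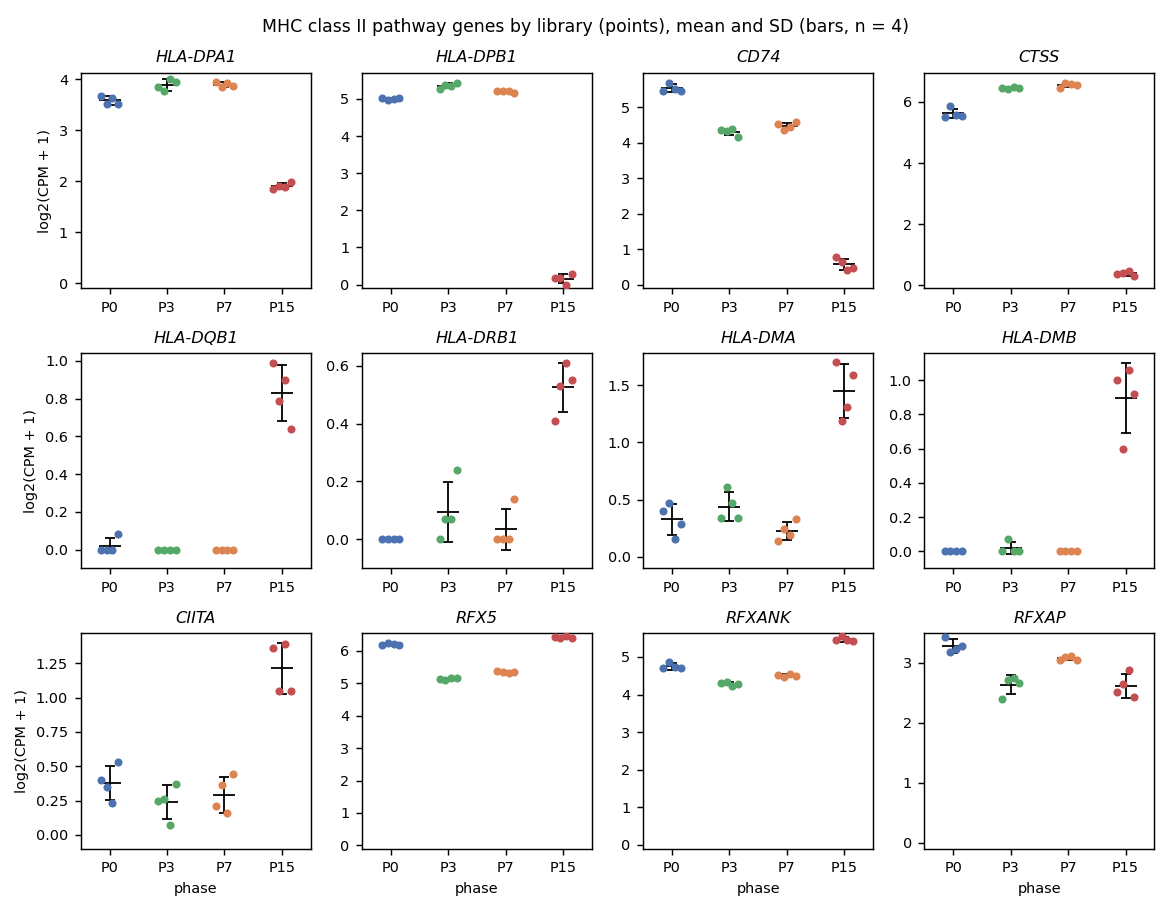
Values of 12 class II pathway genes in log2(CPM + 1) (vertical axes, which differ between panels) by phase (horizontal axis); points are libraries and bars the mean and SD of 4. HLA-DPA1, HLA-DPB1, CD74 and CTSS fall at P15, to means of 1.91, 0.16, 0.58 and 0.39, while HLA-DQB1, HLA-DRB1, HLA-DMA, HLA-DMB and CIITA are highest there, at means between 0.52 and 1.45.

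The RFX complex, made of RFX5, RFXANK and RFXAP, binds the promoters of both classes together with NLRC5 or CIITA. RFX5 was at 6.18, 6.26, 6.20 and 6.19 at P0, 5.14, 5.09, 5.16 and 5.17 at P3, 5.37, 5.35, 5.32 and 5.34 at P7 and 6.42, 6.39, 6.47 and 6.39 at P15. It fell by 1.07 (SE 0.04, adjusted p = 4.8e-18) from P0 to P3 and rose by 1.07 (SE 0.04, adjusted p = 3.8e-19) from P7 to P15, to a level above P0 by 0.21 (adjusted p = 6.4e-06). RFXANK was at 4.70, 4.88, 4.73 and 4.70 at P0, 4.30, 4.34, 4.24 and 4.27 at P3, 4.53, 4.47, 4.56 and 4.50 at P7 and 5.44, 5.56, 5.46 and 5.42 at P15. It fell by 0.47 at P3, rose by 0.95 (SE 0.05, adjusted p = 4.7e-15) from P7 to P15 and passed 2-fold only against P3, at 1.18 higher (SE 0.05, adjusted p = 5.9e-17). RFXAP fell by 0.65 (SE 0.09) at P3, rose by 0.45 at P7 and fell by 0.46 (SE 0.09, adjusted p = 7.2e-05) at P15. In the 2 remaining comparisons, CD74 alone was called at P7 against P0 (1 of 28 lower, 3.37% of all tested genes in either direction), and at P15 against P3 12 genes were called lower and 2, RFX5 and RFXANK, higher (27.1% of all tested genes in either direction).

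Of the 39 genes, 20 lie on chromosome 6, and neighbours there moved in different ways between P7 and P15. TAP2, PSMB8, PSMB9 and TAP1 lie side by side (GRCh38, chromosome 6, from 32821833 at the end of TAP2 to 32859851 at the end of PSMB9), and their changes were 0.58, -1.29, -0.87 and -0.07. TAP1 and PSMB9 start back to back by their RefSeq windows. The difference TAP1 minus PSMB9 within a library went from 0.98 ± 0.03 (SD, n = 4) at P7 to 1.78 ± 0.07 at P15, a change of 0.80. TAP2 minus PSMB8 went from -1.02 ± 0.09 to 0.85 ± 0.10, a change of 1.87. Two-sided exact permutation tests gave p = 0.029 each (adjusted p = 0.029 over 3 pairs). As the pairs were chosen after the values were seen, these p-values add no support of their own. HLA-DMB and HLA-DMA, which rose from near 0, lie between TAP1 and the pair HLA-DPA1 and HLA-DPB1, which fell.

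**Figure D5:**
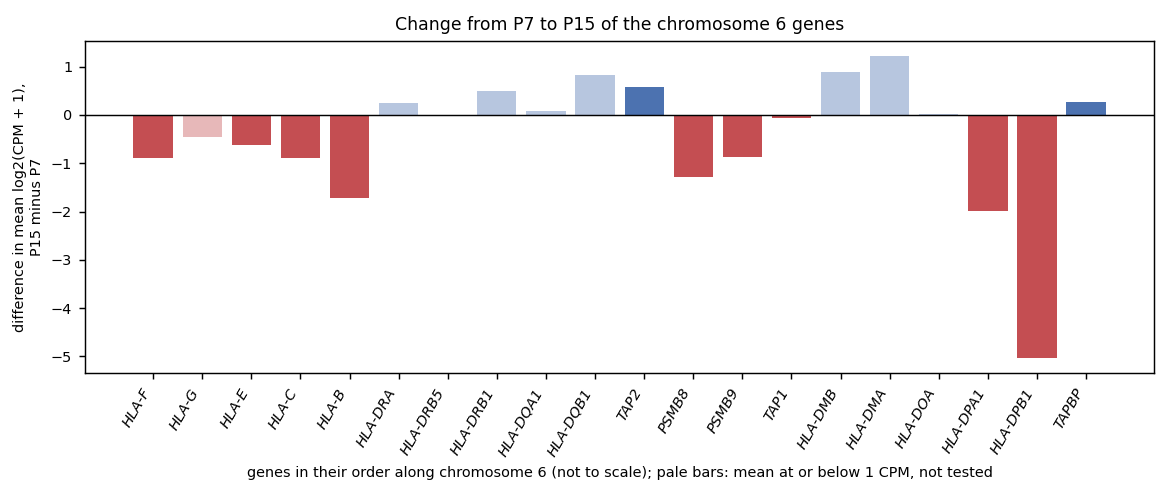
Difference in mean log2(CPM + 1) between P15 and P7 (vertical axis) for the 20 genes on chromosome 6 in their order along it (horizontal axis, not to scale); pale bars are genes with a mean at or below 1 CPM, which were not tested. Red bars are falls and blue bars rises, and the rises of HLA-DQB1, TAP2, HLA-DMB and HLA-DMA stand between the falls of the class I chains and of HLA-DPA1 and HLA-DPB1.

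Class I and class II promoters carry an RFX-bound element and a CCAAT box, bound by NFY, and many class I pathway promoters also carry an interferon-stimulated response element, bound by the IRF factors. RefSeq promoter windows of 300 bases (GRCh38.p14) matched 33 of the 39 genes, some with several windows, and a gene was counted where any of its windows held a match. The core of that element, searched on both strands as GAAA, any 2 bases and GAAA, was in 12 of the 33, B2M, ERAP1, ERAP2, HLA-F, PSMB8, PSMB10, PSME1, PSME2, RFX5, TAP1, TAP2 and TAPBP, and in 4.38% of 27305 genes with a window. The CCAAT box, ATTGG on either strand, was in 22 of the 33 and in 39.7% of all genes, and the core of the gamma-activated site (TTC, any 3 bases and GAA) was in 4 of the 33, HLA-DQA1, IRF1, PSMB8 and TAP1, and in 9.38%. Matches describe the letters only and are not evidence of binding. The 160 bases before the start of the first window listed are printed for 4 class II genes, of which CD74 and HLA-DPB1 fell and HLA-DQB1 and HLA-DMB rose at P15, and for 4 class I pathway genes with the interferon core, of which B2M and PSMB10 fell, TAP1 changed by -0.07 and TAP2 rose. Capitals mark the interferon core in B2M, TAP1, TAP2 and PSMB10 and the CCAAT box, each on either strand.
CD74, chr5:150412911-150413070, minus strand: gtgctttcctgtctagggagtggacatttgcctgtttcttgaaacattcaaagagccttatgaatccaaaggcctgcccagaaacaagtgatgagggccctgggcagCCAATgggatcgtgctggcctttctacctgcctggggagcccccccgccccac
HLA-DPB1, chr6:33075830-33075989, plus strand: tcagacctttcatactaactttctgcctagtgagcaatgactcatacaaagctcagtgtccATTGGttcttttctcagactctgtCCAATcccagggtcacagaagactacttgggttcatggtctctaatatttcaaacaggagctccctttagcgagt
HLA-DQB1, chr6:32666658-32666817, minus strand: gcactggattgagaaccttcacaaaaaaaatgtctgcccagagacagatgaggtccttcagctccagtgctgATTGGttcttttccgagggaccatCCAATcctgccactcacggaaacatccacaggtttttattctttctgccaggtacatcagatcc
HLA-DMB, chr6:32941029-32941188, minus strand: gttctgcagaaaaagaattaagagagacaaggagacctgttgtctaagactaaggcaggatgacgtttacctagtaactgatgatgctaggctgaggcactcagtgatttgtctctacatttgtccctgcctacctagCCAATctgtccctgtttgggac
B2M, chr15:44711357-44711516, plus strand: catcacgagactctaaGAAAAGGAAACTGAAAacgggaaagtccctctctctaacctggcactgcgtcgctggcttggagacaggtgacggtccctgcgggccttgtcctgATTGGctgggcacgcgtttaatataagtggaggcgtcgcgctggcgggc
TAP1, chr6:32853705-32853864, minus strand: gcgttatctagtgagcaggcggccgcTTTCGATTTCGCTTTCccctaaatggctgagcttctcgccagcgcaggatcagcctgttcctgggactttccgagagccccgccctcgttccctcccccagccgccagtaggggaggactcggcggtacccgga
TAP2, chr6:32838740-32838899, minus strand: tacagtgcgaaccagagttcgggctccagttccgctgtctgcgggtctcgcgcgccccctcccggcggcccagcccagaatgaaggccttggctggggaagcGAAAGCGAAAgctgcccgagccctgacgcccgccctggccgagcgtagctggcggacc
PSMB10, chr16:67936851-67937010, minus strand: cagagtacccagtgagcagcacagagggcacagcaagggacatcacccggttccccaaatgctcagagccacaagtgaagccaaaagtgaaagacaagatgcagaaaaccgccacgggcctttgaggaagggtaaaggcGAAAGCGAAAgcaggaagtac

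HLA-DPB1 and HLA-DQB1, which moved in opposite directions at P15, each hold a pair of CCAAT boxes in opposite orientation, at -99 and -75 in HLA-DPB1 and at -88 and -64 in HLA-DQB1 (the first base of each match, where -1 is the base before the annotated start). CD74 has 1 at -53 and HLA-DMB 1 at -22. In B2M and in TAP1 a pair of interferon cores overlap, at -144 and -138 and at -134 and -128, and TAP2 and PSMB10 hold 1 each, at -58 and -21. Of the 12 genes with the interferon core in a window, B2M, ERAP1, ERAP2, PSMB8 and PSMB10 fell by at least 2-fold from P7 to P15, HLA-F, PSME1 and PSME2 fell by less, TAP1 did not pass the test, TAP2 and TAPBP rose by less than 2-fold and RFX5 rose by at least 2-fold. HLA-B, TAPBPL, HLA-DPA1, HLA-DPB1 and CD74, whose windows lack the core, also fell by at least 2-fold. So did NLRC5 and CTSS, which had no window. Among all 28 tested genes, 12 fell and 1 rose by at least 2-fold in that step, beside 12.1% and 13.4% of all tested genes. A link between the core and these changes was not tested.

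The wider pathway was read from 8 lists of further genes. From P7 to P15, 13.4% of all tested genes were called higher and 12.1% lower, and on the adjusted p alone 46.3% rose and 40.1% fell. Of 20 tested genes of interferon receptors and signalling, 2 were called higher and none lower from P7 to P15, which is 10% of the list against 25.5% of all tested genes, and 14 rose and 4 fell on the adjusted p alone (70% and 20% of the list). IFNLR1, the interferon lambda receptor chain, rose by 1.47 (SE 0.09) and IRF9, the DNA-binding subunit of the interferon-activated complex ISGF3, by 1.21 (SE 0.14), while IRF2 gave -0.05 (adjusted p = 0.26). Against P0, IRF7 was lower at P15 by 1.59 on the log2 scale (log2 fold change -1.59, SE 0.07). SOCS1, the feedback inhibitor of JAK kinases, fell by 1.03 (SE 0.13) from P0 to P3. Of 16 tested genes of the constitutive proteasome and its activators, 2 were called lower and none higher from P7 to P15, PSME3 at -1.41 and PSMA2 at -1.10, and this 12.5% is near the share over all tested genes.

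Among 8 tested class I-like genes and ligands of natural killer cell receptors, 4 were called higher and none lower from P7 to P15, beside 13.4% and 12.1% of all tested genes. MICA, a ligand of the activating receptor NKG2D, was at 5.44, 5.55, 5.49 and 5.45 at P0, 5.75, 5.78, 5.82 and 5.87 at P3, 5.59, 5.63, 5.71 and 5.54 at P7 and 7.46, 7.52, 7.50 and 7.55 at P15. It rose by 1.89 (SE 0.04, adjusted p = 5.9e-23) from P7 to P15 with no overlap, opposite to the classical chains. The further NKG2D ligands ULBP1 and MICB rose by 1.49 (SE 0.07) and 1.48 (SE 0.04), and HFE, a class I-like regulator of iron uptake, by 1.21 (SE 0.06). The 6 tested endosomal proteases and loading genes split, with 3 called lower and 1 higher from P7 to P15. CTSZ fell by 2.05, CTSD by 1.92 and CTSB by 1.59, and the gene called higher is not reported here. CTSL rose by 0.89 in that step, short of 2-fold, and was 1.45 higher at P15 than at P0. CTSD had risen by 1.25 from P3 to P7.

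CD274, which encodes the checkpoint ligand PD-L1, alternated between phases. Its values were 4.19, 4.27, 4.18 and 4.03 at P0, 5.64, 5.54, 5.64 and 5.74 at P3, 4.03, 4.25, 4.07 and 4.19 at P7 and 5.65, 5.86, 5.79 and 5.81 at P15, so that P3 and P15 lay above P0 and P7 without overlap. It rose by 1.47 (SE 0.06, adjusted p = 3.6e-16), fell by 1.50 (SE 0.06, adjusted p = 9.1e-16) and rose by 1.64 (SE 0.06, adjusted p = 4.5e-18) in the successive steps. Of the 6 tested co-stimulation and checkpoint genes, CD40 was the other one called from P7 to P15, at -1.53 (SE 0.03), and PDCD1LG2 was at -1.03 for P15 against P0. In the remaining lists, EZH2, a repressive histone methyltransferase, was the 1 gene called of 10 co-regulators, at 1.05 higher from P7 to P15. Of 6 folding enzymes of the endoplasmic reticulum P4HB fell by 1.17 in that step and HSPA5 was 1.28 higher at P15 than at P0. None of the 6 cytosolic peptidases passed 2-fold in these 4 comparisons, although 1 rose and 4 fell from P7 to P15 on the adjusted p alone.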

How the data were processed

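RNA was sequenced from 16 libraries of T24 and its gemcitabine-resistant phases, 4 per phase. The authors deposited 1 table of log2 values, log2(CPM + 1) rounded to 2 decimals, for 39007 genes. Per the labels, reads were mapped with STAR 2.6.1a to GRCh38 (submitters' processing notes). The annotation release, strand setting and treatment of reads with several hits are not given in the sources used here. The study's methods name quantile normalization, but the deposited values still sum to the same total CPM in each library, so they were tested as they are, with quantile normalization as an alternative. The steps between low values gave whole estimated counts at 1 spacing per library, and total counts of 33.84 M to 50.0 M. Because the values are logs, no count model was fitted.

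Genes with a mean above 1 CPM (13249) entered a linear model with a mean for each phase (limma 3.58.1, R 4.3.3, all libraries together), a trended variance prior and Benjamini-Hochberg adjustment. A gene was called at an adjusted p below 0.05 and at least 2-fold. Fold changes are on the log2(CPM + 1) scale, which understates the change of low genes. In simulated data, 200 of 200 changed genes and 0 others of 12927 were called for P15 against P0. The size of change and the expression level given to these 200 genes are not stated here, and the counts hold only for those settings. How well calls near the 2-fold limit, such as PSME1 and IRF1, or calls of low genes are recovered was not tested. Subunit pairs were compared by two-sided exact permutation tests. The genes, lists and tests were chosen with earlier results of these data known. Genes called in any of 6 comparisons are given with every library's value, and list genes only where called in 1 of the 4 main comparisons, at most 4 per list, or where they are PSMB5, PSMB6, PSMB7, IRF2 or IRF9; some list genes are not reported here. Replicates are numbered as their descriptions have it; for 14 of 16 libraries the title carries another number. Exon overlaps and lengths come from GENCODE 44 (GRCh38), where 17 of the 39 genes share exon bases with another gene of the table; lengths are those of 1 reference transcript, and HLA-DPA1 had none. Alternatives were the filter, the pseudocount, the scaling, a replicate block, the variance prior, a fit of only the phases compared, and leaving out each library. Samples were mapped by their labels, and none was left out.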

Additional observations from a re-analysis of the deposited data

Results flagged for a closer look

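A library far from the other 3 of its phase was looked for in 131 sets of 4 libraries with at least 3 estimated counts on average, by the gap to the nearest library over the whole range, set against Dixon's critical value, and 9 sets passed, where chance would give about 6.5. P0 replicate 2 held 4 of them. In that library HLA-B was 7.83, above 7.58 to 7.59 in the others (ratio 0.96). HLA-F was 4.42 against 4.01 to 4.05 (ratio 0.90), RFXANK was 4.88 against 4.70 to 4.73 (ratio 0.83), and IRF1 was lower, at 5.69 against 5.80 to 5.82 (ratio 0.85). Without P0 replicate 2, 12 genes instead of 13 were called for P15 against P0, PSME1 being lost. 

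The other 5 lay in 5 libraries. TAP2 was higher in P3 replicate 4, at 5.40 against 5.33 to 5.34 (ratio 0.86). PSMB8 was lower in P7 replicate 2, at 5.93 against 5.98 in the other three (ratio 1.00). PSMB10 was higher in P15 replicate 2, at 1.71 against 1.37 to 1.38 (ratio 0.97). CALR was lower in P15 replicate 3, at 10.15 against 10.26 to 10.28 (ratio 0.85). HLA-DRA was higher in P15 replicate 1, at 0.44 against 0.22 to 0.25 (ratio 0.86).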

How the results depend on the processing

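The counts of called genes from P7 to P15 (13) lay between 10 and 15 and those for P15 against P0 (13) between 9 and 14 over the alternatives. P3 against P0 had 1 instead of 2 called genes when each of the 16 libraries had to exceed 1 CPM, where CD74 was no longer tested, and 1 with a pseudocount of 5 CPM, where RFX5 missed 2-fold. P7 against P3 had 0 throughout. Leaving out 1 library gave 2 to 2, 0 to 0, 13 to 13 and 12 to 13 called genes for P3 against P0, P7 against P3, P15 against P7 and P15 against P0, the 12 without P0 replicate 2 or P15 replicate 3, where PSME1 was lost, or P15 replicate 1, where IRF1 was lost.

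Of the subunit pairs, PSMB9 minus PSMB6 lay between -0.31 and -0.24 (P3 against P0) and between 0.09 and 0.16 (P7 against P3) with 1 library left out, and passed or missed the threshold as stated with the values. With quantile normalization PSMB10 minus PSMB7 for P7 against P3 was -0.01, and with 1 library left out it lay between -0.01 and 0.13.

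Changes of sign came in values near 0. With quantile normalization PDIA3 for P15 against P0 went from 0.13 to -0.05 (adjusted p = 0.098), TAP1 in that comparison was 0.00, TAPBPL 0.06 and NLRC5 0.01 for P3 against P0, and ERAP2 -0.03 and HLA-DPA1 -0.05 for P7 against P3. HLA-E was 0.00 for P3 against P0 after shifting library medians. With 1 library left out, TAP1 lay between -0.04 and 0.02 (P15 against P0), TAPBPL between -0.10 and 0.03 and NLRC5 between -0.06 and 0.00 (P3 against P0), and ERAP2 between -0.05 and 0.05, PSMB10 between -0.01 and 0.12 and HLA-DPA1 between -0.04 and 0.04 (P7 against P3). The cause was not tested. Of the other values for single genes and for the 3 added pairs, 1093 kept direction and side of the threshold, 11 lost the call and 9 gained it, and with 1 library left out 1792, 20 and 14 did.

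Same-numbered libraries did not deviate together (correlations from -0.147 to 0.218 by the description and from -0.117 to 0.218 by the title), so the numbers do not pair the samples. With the replicate block, by either number, 2, 0, 13 and 13 genes were called, as without it. Depth limits the 11 genes under 1 CPM, which had at most 288 estimated counts in a phase.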
